A study of Homo sapiens with 6 samples.

Results

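The genes described here act at the step that carries the signal of the insulin receptor into the cell. They are 3 insulin receptor substrates (IRS1, IRS2 and IRS4), 3 regulatory subunits of phosphoinositide 3-kinase (PIK3R1, PIK3R2 and PIK3R3) and 3 of its catalytic subunits (PIK3CA, PIK3CB and PIK3CD). They were listed by name for their place in this pathway, with earlier results of these data known, and all 9 had a probe set among the 24726 on the array. Expression was measured on Affymetrix arrays in 6 subcutaneous xenograft tumours of Huh7, an established human hepatocellular carcinoma line, grown in nude mice. In the IR-A group (3 tumours) the cells stably carried the plasmid pRcCMVi.hIR-A(GFP), which expresses isoform A of the human insulin receptor. In the control group (3 tumours) they carried the empty vector. Cells of both groups had been selected with G418 and sorted for GFP before being injected under the skin. Whether each line was 1 clone or a pool, and which mouse or culture a tumour came from, is not given in the sources used here, and the p-values therefore rest on the spread among these 6 arrays alone, part of which may be technical. Nude mice lack mature T cells but keep other host cells, and the array reads mouse RNA only where it binds to probes for human genes.

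An activated insulin receptor phosphorylates IRS proteins on tyrosines. The regulatory subunits of class I phosphoinositide 3-kinase (PI3K) bind these phosphotyrosines through their SH2 domains and bring the catalytic subunit to the membrane, where it makes the lipid PIP3 that recruits the kinase AKT. In hepatocytes IRS1 and IRS2 carry most of this signal, and IRS2 transcription is known to be repressed by insulin through FOXO and SREBP factors. The regulatory subunit both stabilises and restrains the catalytic one, so the balance between them matters for signalling.

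The values are log2 signals, so a difference of 1 is a doubling of signal. Each difference is the mean of the 3 IR-A tumours less that of the 3 controls. The overexpressed gene, INSR, read 8.04, 7.61 and 8.47 in control tumours and 10.65, 11.31 and 11.01 in IR-A tumours. In limma's test, 0 of 24726 probe sets (0.0%) passed a Benjamini-Hochberg adjusted p of 0.05, INSR included (adjusted p = 0.0769), and 3493 (14.1%) had an unadjusted p under 0.05. The groups did not overlap in 17.2% of probe sets. Control tumour 2 stood apart from its group, with a mean correlation across probe sets of 0.982 with the other controls and 0.987 with the other group. Leaving it out gave 308 probe sets past the threshold. Hepatocyte markers were bright, with list means of 11.40 to 11.62 in control and 11.66 to 11.73 in IR-A tumours, and 5 of 13 had an unadjusted p under 0.05, all higher. Fibroblast markers had means of 4.36 to 4.71 in control and 4.73 to 4.83 in IR-A tumours, with 6 of 9 genes above 0 and 3 higher at an unadjusted p under 0.05 (LUM by 1.26, COL1A2 by 0.83 and COL1A1 by 0.40). The 3 fibroblast markers below 0 were PDGFRA (-0.87, groups overlapping), FAP (-0.079) and DCN (-0.013). Adipocyte marker means were 4.15 to 4.42 and 4.53 to 4.71 (2 of 5 above 0, PLIN1 by 1.64), and endothelial ones 3.83 to 3.87 and 3.91 to 3.93 (3 of 6 above 0, PECAM1 by 0.51). Each of these list means mainly followed that 1 gene. The other adipocyte markers differed by -0.15 (ADIPOQ), -0.12 (LEP), -0.0041 (CIDEC) and 0.039 (FABP4). The other endothelial markers differed by -0.073 (KDR), -0.059 (CDH5), -0.028 (TEK), 0.020 (VWF) and 0.064 (TIE1). Skeletal muscle means overlapped, at 3.81 to 4.33 and 3.81 to 4.12 (1 of 5 above 0). The part of these shifts in the results that follow was not tested. The number of arrays limits the precision, and in bulk tumours fewer cells of a type and less RNA per cell cannot be told apart.

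Among the 9 genes, PIK3R1 had more signal in IR-A tumours by 2.38-fold, the largest difference of the 9. PIK3R2 and PIK3CA had more signal as well, by 1.46-fold and 1.28-fold, while IRS2 and PIK3CB had less, by 1.43-fold and 1.33-fold. None of the 9 passed the adjusted threshold in limma over all probe sets, with adjusted p values from 0.148 to 0.921. At an unadjusted p under 0.05 there were 5 of 9 genes, 3 higher and 2 lower, against 14.1% of all probe sets (7.1% higher and 7.03% lower). The groups did not overlap for 4 of 9 genes, 2 higher and 2 lower, against 17.2% of all probe sets (7.73% higher and 9.45% lower). The median difference of the 9 was 0.25, with 5 above 0, while over all probe sets the median was -0.026 with 44.0% above 0. The count of 5 was 2 when control tumour 1, control tumour 3 or else IR-A tumour 1 was left out, where 9.0%, 11.7% and 8.72% of all probe sets had an unadjusted p under 0.05. It was 6 without control tumour 2 (21.1% of all probe sets) and 6 with array weights (17.8%). With an intensity trend it was 4 (13.6% of all probe sets). Without the dimmest 50% of probe sets it was 4 of the 8 genes kept, against 20.7% of the probe sets kept. In both of these settings PIK3CA was the gene lost from the 5.

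**Figure D1:**
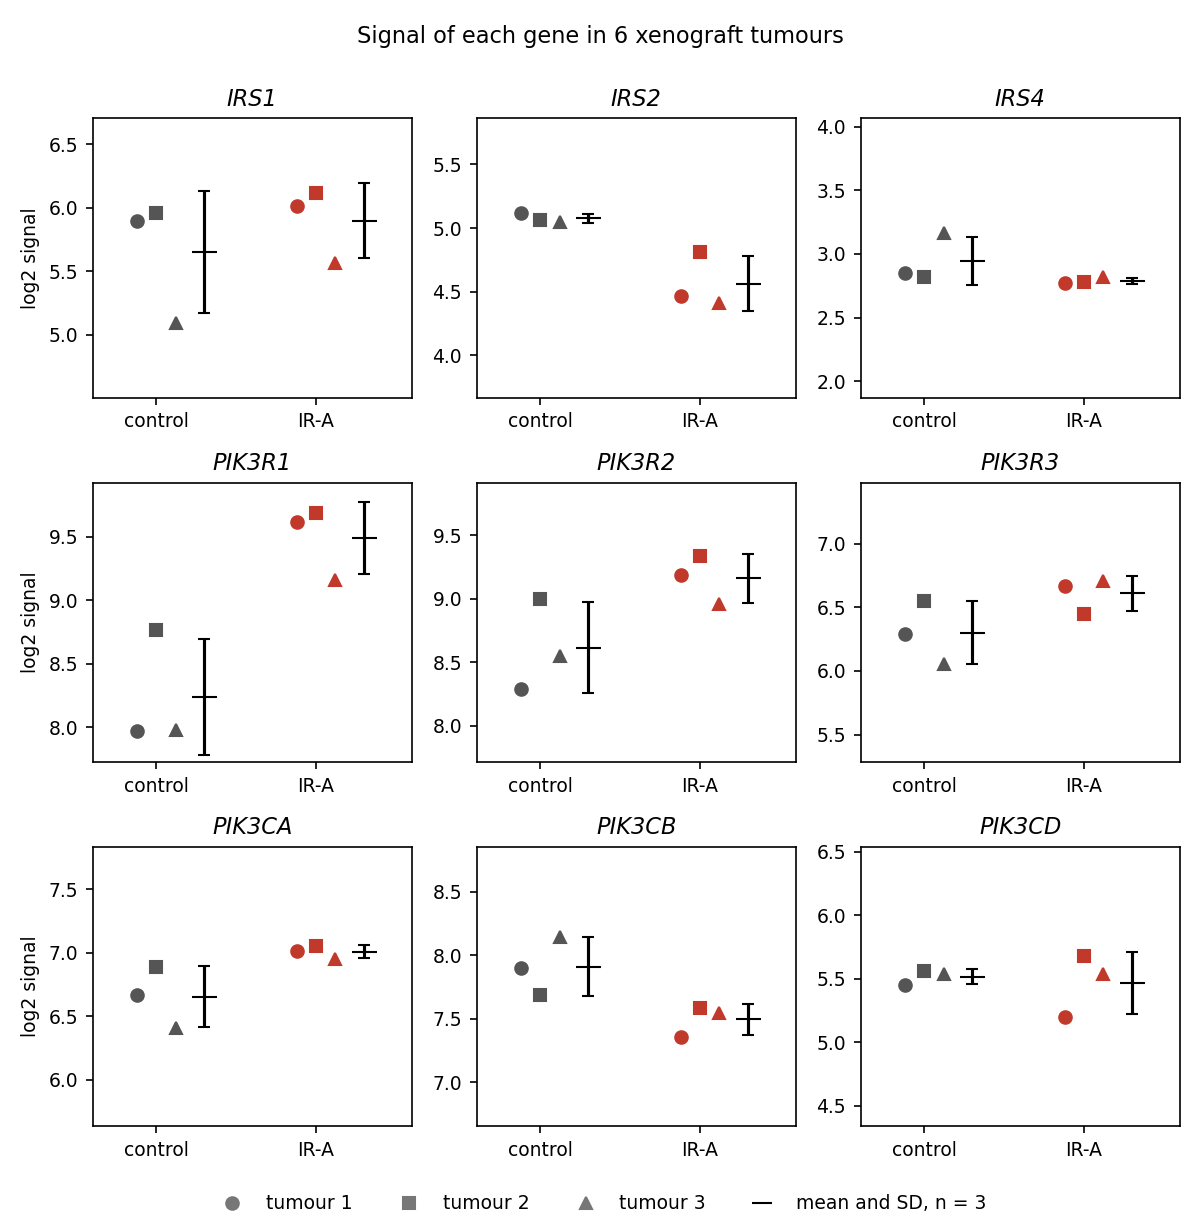
Log2 signal of each of the 9 genes in 3 control tumours (grey) and 3 IR-A tumours (red), with the tumour number as the marker shape and the mean and SD (n = 3) as a bar; every panel spans the same height on its own level. IRS2, PIK3R1, PIK3CA and PIK3CB are the 4 genes whose groups do not overlap, and among controls tumour 2 lies closest to the IR-A tumours for PIK3R1, PIK3R2, PIK3CA and PIK3CB.

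Of the 3 substrates, 1 was lower at an unadjusted p under 0.05, against 7.03% of all probe sets lower. None passed the adjusted threshold. IRS2, a main hepatic substrate, read 5.12, 5.06 and 5.05 in control tumours and 4.47, 4.81 and 4.41 in IR-A tumours. Its mean signal lay at the 51.5 percentile of all probe sets. All IR-A tumours lay below all controls, and the 3 controls had an SD of 0.037. The difference was -0.51 (SE 0.13, 95% interval -0.82 to -0.21), from 5.08 ± 0.037 (SD, n = 3) to 4.56 ± 0.22 (SD, n = 3). Its adjusted p in limma was 0.177 and its unadjusted p 0.00533. Leaving out any 1 tumour gave differences of -0.64 to -0.44, with unadjusted p values from 0.000904 to 0.0223. Control tumour 2 lay with the other controls here. A difference of this size or larger was found in 9.32% of probe sets.

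IRS1, the other main hepatic substrate, read 5.90, 5.96 and 5.10 in control tumours and 6.02, 6.12 and 5.57 in IR-A tumours. The groups overlapped, and replicate 3 was the lowest in each group. The difference of 0.25 (SE 0.27, 95% interval -0.39 to 0.88) did not pass the test (adjusted p = 0.746 in limma). It was -0.030 without control tumour 3. The interval reaches from a 0.764-fold to a 1.85-fold level.

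IRS4, a substrate expressed mainly in brain regions and some tumours, was dim. It read 2.85, 2.82 and 3.16 in control tumours and 2.78, 2.78 and 2.82 in IR-A tumours. Its mean signal lay at the 9.71 percentile of all probe sets, and no measure of background came with the values. The difference of -0.15 (SE 0.12, adjusted p = 0.629 in limma) rested on control tumour 3 and was -0.043 without it.

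Start-site sequences of the substrates are shown because insulin is known to act on IRS2 transcription through a short element next to an E-box. RefSeq promoter windows of build GRCh38.p14, each from 250 bases before to 50 after an annotated start, held all 9 genes with 21 starts. The letters searched, on both strands, were TGTTTTG, the core of the insulin response element that FOXO factors bind, GTAAACA, a forkhead motif, and the E-boxes CACGTG and CACATG, bound by basic helix-loop-helix factors. Capitals mark the matches. The IRS2 stretch (chr13:109786584-109786643, minus strand) ends at the base before the annotated start. The IRS4 stretch (chrX:108736492-108736521, minus strand) begins 144 bases before the second of its starts and lies downstream of the first. The IRS1 stretch (chr2:226799771-226799800, minus strand) lies 21 to 50 bases into the transcript.
IRS2: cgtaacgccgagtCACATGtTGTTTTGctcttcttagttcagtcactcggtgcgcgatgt
IRS4: tgtggtCACGTGtTGTTTTGcccgctgtcg
IRS1: gcgcggaggctccgtCACGTGtttttctcc

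In IRS2 and IRS4 an E-box was followed, after 1 base, by TGTTTTG, 40 bases before the IRS2 start and 131 bases before the second IRS4 start. The run TGTTGTTTTGC that both share, searched after their sequences had been read, occurred in 8 of 35116 windows (0.0228%), these 2 among them. As the run was taken from these 2 windows, the count does not show whether sharing it is unusual. IRS1 had the E-box CACGTG 36 bases into the transcript and no TGTTTTG in its window. Matches were not limited to the substrates. TGTTTTG also stood 226 bases before the first PIK3CD start, and CACATG, on the opposite strand, 34 bases before the second PIK3CB start. TGTTTTG alone was found in 4.92% of all windows, CACGTG in 7.26% and CACATG in 11.1%. These are matches of letters, and binding was not measured.

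The regulatory subunits all had higher mean signal in IR-A tumours, as did 44.0% of all probe sets. At an unadjusted p under 0.05 there were 2 of 3, both higher, against 7.1% of all probe sets higher. PIK3R1 encodes p85alpha and, from internal starts, the shorter p55alpha and p50alpha. It read 7.97, 8.76 and 7.98 in control tumours and 9.62, 9.68 and 9.16 in IR-A tumours. The groups did not overlap, and control tumour 2 was the control nearest to the IR-A tumours. The means were 8.24 ± 0.46 (SD, n = 3) and 9.49 ± 0.28 (SD, n = 3), a difference of 1.25 (SE 0.25, 95% interval 0.64 to 1.86). Its adjusted p was 0.148 in limma. Of all probe sets, 1.03% had a difference this large in either direction. That share includes dim probe sets, whose differences RMA compresses, while the mean signal of PIK3R1 lay at the 93.2 percentile. Without control tumour 2 the difference was 1.51 and passed the threshold in limma (adjusted p = 0.0375), where 1.25% of all probe sets passed. With any other tumour left out it was 1.12 to 1.41 and did not pass. RefSeq lists 4 starts for PIK3R1, and none of their windows held the 4 motifs searched. With 1 probe set per gene, the products of these starts cannot be told apart.

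PIK3R2, which encodes p85beta, read 8.29, 9.001 and 8.55 in control tumours and 9.19, 9.34 and 8.95 in IR-A tumours. Control tumour 2 overlapped with the IR-A tumours. The difference was 0.55 (SE 0.20, 95% interval 0.068 to 1.03, adjusted p = 0.302 in limma), and 0.74 without control tumour 2 (adjusted p = 0.0852). It was 0.38 without control tumour 1.

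PIK3R3 encodes the shorter regulatory subunit p55gamma. It read 6.29, 6.55 and 6.06 in control tumours and 6.67, 6.45 and 6.71 in IR-A tumours, so that control tumour 2 again lay among the IR-A tumours. The difference of 0.31 (SE 0.15, 95% interval -0.050 to 0.67) had an adjusted p of 0.430 in limma. It ran from 0.19 (without control tumour 3) to 0.44 (without control tumour 2) with 1 tumour left out.

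Of the ubiquitous catalytic subunits, PIK3CA had a higher and PIK3CB a lower mean in IR-A than in control tumours, and neither passed. PIK3CA, which encodes p110alpha, the isoform that carries most insulin signalling to PIP3, read 6.67, 6.89 and 6.41 in control tumours and 7.01, 7.06 and 6.96 in IR-A tumours. The groups did not overlap, and the IR-A tumours lay closer together than the controls, with an SD of 0.051 against 0.24. The difference was 0.35 (SE 0.14, 95% interval 0.028 to 0.68, adjusted p = 0.323 in limma). It was 0.23 without control tumour 3 and 0.47 without control tumour 2. PIK3CA had an unadjusted p of 0.0373 in limma, and 0.0585 with an intensity trend. Over all settings this p ran from 0.00738 to 0.0970. The PIK3CA window was the 1 of 21 with the forkhead motif, which was found in 3.42% of all windows. The match, on the opposite strand, begins 149 bases before the start of the window's transcript (stretch chr3:179148196-179148225, plus strand) and is shown in capitals. The outermost RefSeq start of the gene lies upstream of this stretch.
PIK3CA: gagttcgttgttTGTTTACacgatgtgagc

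PIK3CB encodes p110beta, which also takes signals from G protein-coupled receptors. It read 7.90, 7.68 and 8.15 in control tumours and 7.36, 7.59 and 7.54 in IR-A tumours. All IR-A tumours were below all controls, and control tumour 2 at 7.68 was the nearest to the highest of them at 7.59. The difference was -0.41 (SE 0.14, 95% interval -0.75 to -0.074, adjusted p = 0.280 in limma), and ran from -0.53 (without control tumour 2) to -0.30 (without control tumour 3).

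PIK3CD encodes p110delta, the isoform best known from leukocytes. It read 5.45, 5.57 and 5.54 in control tumours and 5.20, 5.68 and 5.54 in IR-A tumours. The control values lay inside the range of the IR-A values. The difference was -0.047 (SE 0.14, 95% interval -0.38 to 0.28, adjusted p = 0.921 in limma), and 0.088 without IR-A tumour 1. The leukocyte marker list, whose members were read as human genes, had means of 4.62 to 4.78 in control and 4.78 to 4.90 in IR-A tumours, with 4 of 12 genes above 0. The pan-leukocyte marker PTPRC was dim, with group means of 2.93 in control and 2.86 in IR-A tumours, as was the T cell marker CD3E with 2.95 and 2.94. The 2 markers with an unadjusted p under 0.05 were both higher, the signalling adaptor TYROBP at 5.42 and 7.20 and the lysosomal protein CD68 at 10.33 and 10.95.

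**Figure D2:**
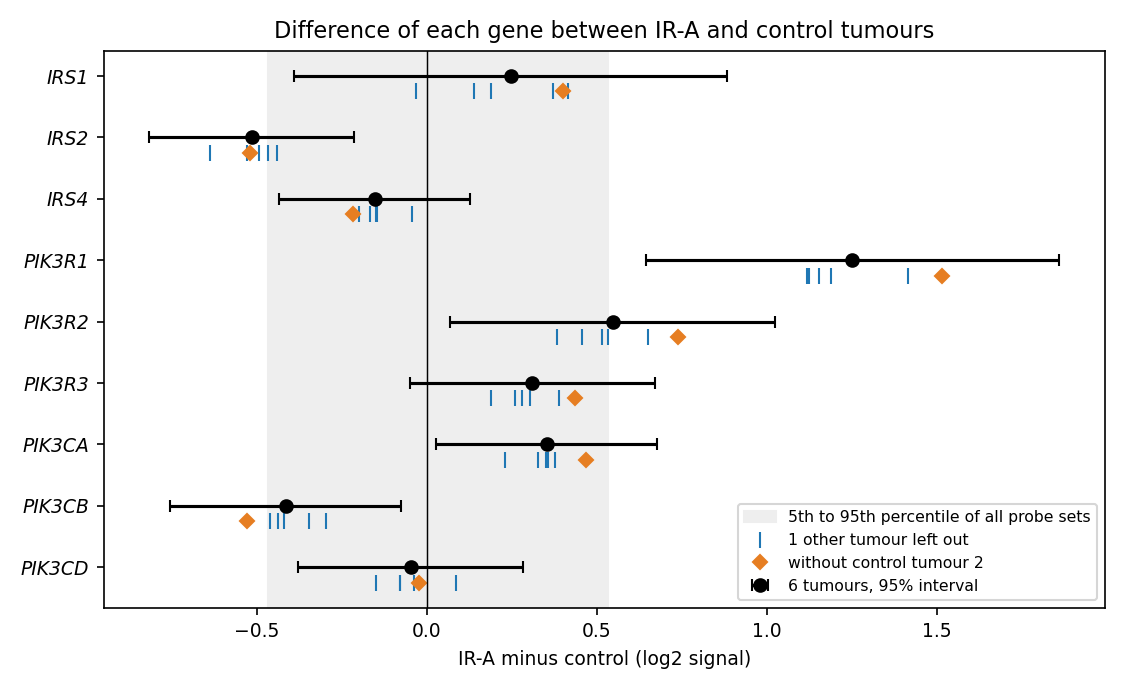
IR-A minus control difference in log2 signal of each gene, with the moderated 95% interval over 6 tumours (black), the differences with 1 tumour left out (blue ticks, orange diamonds for control tumour 2) and, shaded, the 5th to 95th percentile of all probe sets, from -0.47 to 0.53. PIK3R1 lies far above the shaded range at 1.25, PIK3R2 at 0.55 lies just above it, and IRS2 at -0.51 lies below it.

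Control tumour 2 was the control nearest to the IR-A mean for 6 of the 9 genes, namely IRS4, all 3 regulatory subunits, PIK3CA and PIK3CB. It was so for 43.2% of all probe sets and for 53.1% of those whose groups did not overlap. For IRS2 the nearest control was tumour 3, and for IRS1 and PIK3CD tumour 1. The part of this tumour in the differences was not tested beyond leaving it out.

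Ratios between genes within an array do not depend on a shift common to all log2 values of that array. They compare signals, and RMA compresses differences of dim probe sets. A shift of a ratio therefore does not by itself show that 2 RNAs changed unequally. In all, 6 such ratios were compared, as log2 values set to a control mean of 0. The ratio of PIK3R1 to PIK3R2 was 0.056, 0.14 and -0.19 in control tumours and 0.81, 0.72 and 0.59 in IR-A tumours, a shift of 0.71 (SE 0.12). All IR-A tumours were above all controls, with control tumour 2 the highest of these. The shift ran from 0.61 to 0.77 with 1 tumour left out.

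PIK3R1 also shifted against its catalytic partners. Against PIK3CA the shift was 0.90 (SE 0.21), with controls from -0.28 to 0.29 and IR-A tumours from 0.63 to 1.05. Against PIK3CB it was 1.67 (SE 0.43), the widest of the 6. Its controls were spread from -0.49 to 0.75, with control tumour 2 the highest, and its IR-A tumours read 1.93, 1.77 and 1.29. Against PIK3R3 the shift was 0.94 (SE 0.27).

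The ratio of PIK3CA to PIK3CB was 0.022, 0.46 and -0.48 in control tumours and 0.91, 0.72 and 0.67 in IR-A tumours, a shift of 0.77 (SE 0.28). The ratio of IRS1 to IRS2 was 0.21, 0.32 and -0.53 in control tumours and 0.98, 0.73 and 0.58 in IR-A tumours, a shift of 0.76 (SE 0.29). Without control tumour 3 the IRS1 to IRS2 shift was 0.50. Every ratio holds at least 1 gene whose own groups did not overlap, so the 6 largely restate the single-gene values and are given as a description. The two-sided exact permutation p was 0.1 for each, before and after Benjamini-Hochberg adjustment, and 3 against 3 tumours cannot go lower, so none could pass 0.05.

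**Figure D3:**
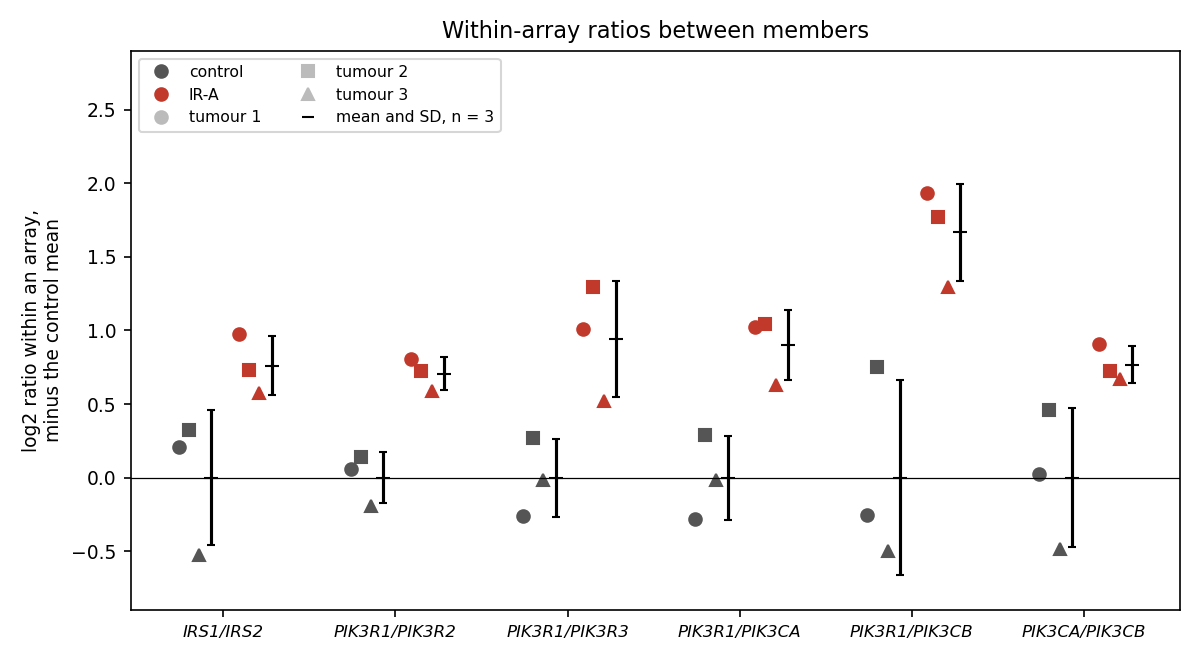
Log2 ratio of 2 genes within an array, minus its mean over the 3 control tumours, for control (grey) and IR-A (red) tumours, with tumour numbers as marker shapes and the mean and SD (n = 3) as bars. The widest shift is 1.67, for PIK3R1 over PIK3CB, where control tumour 2 is the highest control at 0.75; every pair holds a gene whose own groups did not overlap.

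The genes around this step were described through 6 lists with 97 genes, 96 of them measured. None passed the adjusted threshold in limma. At an unadjusted p under 0.05 there were 16 higher and 3 lower (19.8% of 96, against 14.1% of all probe sets). The 16 include INSR, the overexpressed gene. Most genes of each list were brighter than the median probe set. In a fit without the dimmest 50% of probe sets, 20.7% of the probe sets kept had an unadjusted p under 0.05. The list counts below stand against 7.1% of all probe sets higher and 7.03% lower. Genes named from these lists are, unless stated, the 3 of smallest unadjusted p in each, and none of them passed.

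Of 10 receptors that use IRS proteins or PI3K, 4 had an unadjusted p under 0.05, all higher (list median 0.38). These 4 include the overexpressed INSR, which the design made higher. Beside INSR, the kinase-impaired receptor ERBB3, which binds PI3K directly, differed by 0.41 (SE 0.12) and EGFR by 0.77 (SE 0.25). ERBB3 and EGFR had adjusted p values of 0.224 and 0.253 in limma, and neither overlapped between groups. Of the 10 receptors, 6 were above 0 and 4 below. The lowest was IGF1R (-0.94, SE 0.58, adjusted p = 0.542 in limma), named after its value was seen. Its groups did not overlap.

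Of 26 other adaptors, docking proteins and enzymes listed with them, 5 were higher and 1 lower at an unadjusted p under 0.05 (list median 0.19). The 5 include the tyrosine phosphatase PTPN1 (0.31, SE 0.12), named after its value was seen. The lower one was SHC1, which links the receptor to RAS rather than to PI3K. It read 9.72, 9.38 and 9.75 in control tumours and 8.87, 8.94 and 9.19 in IR-A tumours. All IR-A tumours were below all controls, with a difference of -0.61 (SE 0.14, adjusted p = 0.168 in limma). GRB10, an adaptor that inhibits the insulin receptor, differed by 0.34 (SE 0.10), and the docking protein DOK6 by 0.53 (SE 0.20).

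Of 10 other PI3K family subunits and regulators, 3 were higher and 0 lower at an unadjusted p under 0.05 (list median 0.14). The class II enzyme PIK3C2A differed by 0.58 (SE 0.17). PIK3IP1, a membrane protein that inhibits PI3K, differed by 0.45 (SE 0.13). PIK3AP1, an adaptor of PI3K known from B cells, read 7.74, 8.51 and 8.38 in control tumours and 8.78, 9.18 and 8.91 in IR-A tumours, a difference of 0.75 (SE 0.22, adjusted p = 0.229 in limma). Its lowest IR-A tumour lay above its highest control.

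Of 11 phosphatases that remove PI3K lipids or act on AKT, 3 were higher and 0 lower at an unadjusted p under 0.05 (list median 0.14). INPP5D, the lipid phosphatase SHIP1 of blood cells, read 5.18, 5.99 and 5.99 in control tumours and 6.92, 6.54 and 6.32 in IR-A tumours, a difference of 0.87 (SE 0.26, adjusted p = 0.234 in limma). All IR-A tumours were above all controls. The part of the leukocyte markers, whose values are given with PIK3CD, was not tested. INPP4A differed by 0.54 (SE 0.19) and OCRL by 0.40 (SE 0.17).

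Of 21 measured kinases and effectors downstream, 1 was higher and 2 were lower at an unadjusted p under 0.05 (list median 0.022). SGK2, a kinase of the SGK family known in liver and kidney, read 4.71, 5.93 and 4.65 in control tumours and 7.13, 6.68 and 6.47 in IR-A tumours. Control tumour 2 was again the control nearest to the IR-A tumours, which all lay above it. The difference of 1.66 (SE 0.37, adjusted p = 0.159 in limma) was larger than that of PIK3R1. RPS6KB2, an S6 kinase, differed by -0.39 (SE 0.11) and MLST8, a subunit of both mTOR complexes, by -0.26 (SE 0.089). AKT1 (0.022) and AKT2 (0.024), named after their values were seen, had differences near 0.

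Of 18 regulators of IRS transcription and turnover, 0 had an unadjusted p under 0.05 and 0 passed the adjusted threshold in limma (list median 0.024). The smallest p values were those of FBXW8 (0.29, SE 0.12), part of a ubiquitin ligase that targets IRS1, SOCS1 (-0.41, SE 0.19), a cytokine signalling inhibitor that promotes IRS degradation, and CRTC2 (-0.30, SE 0.15), a coactivator of CREB. FOXO1 (-0.14, SE 0.18) and SREBF1 (0.25, SE 0.16), both known to act on IRS2 transcription, were named after their values were seen.

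**Figure D4:**
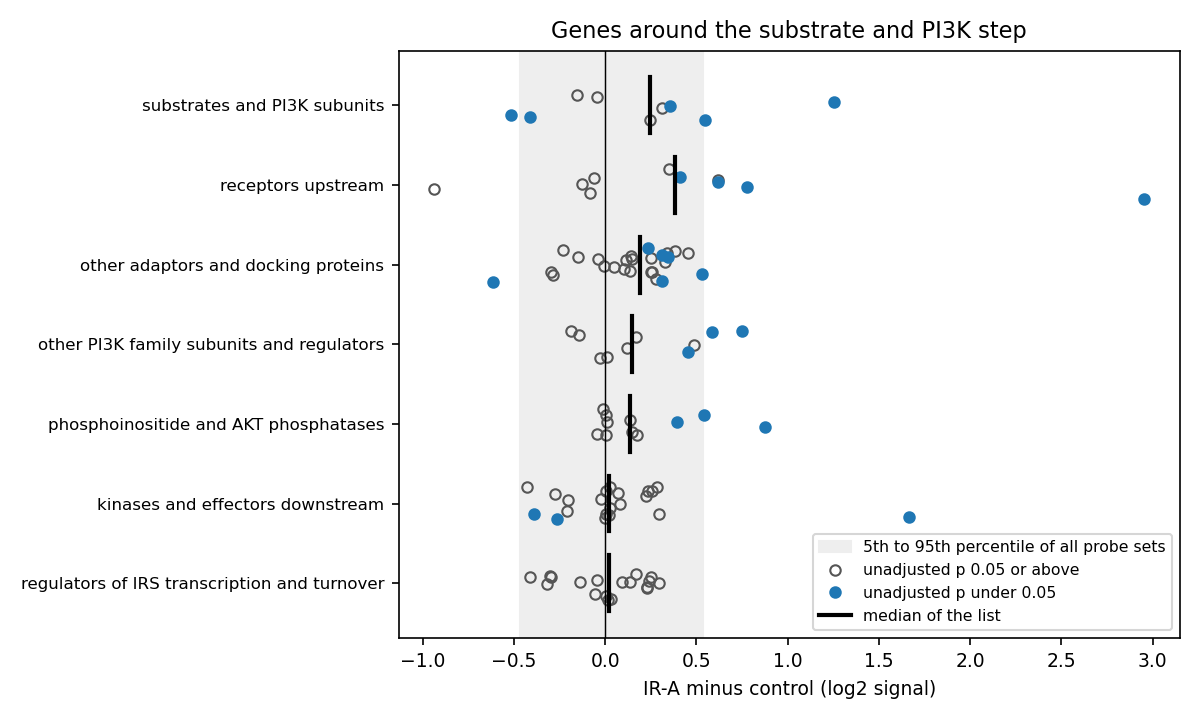
IR-A minus control difference in log2 signal for the 9 genes and for 6 lists of genes around them, 1 point per gene, filled where the unadjusted p is under 0.05, with the list median as a bar and the 5th to 95th percentile of all probe sets shaded. INSR at 2.95 and SGK2 at 1.66 lie farthest to the right and IGF1R at -0.94 farthest to the left. The medians run from 0.022 for the downstream kinases and 0.024 for the IRS regulators to 0.38 for the receptors.

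Genes whose profile over the 6 tumours was most like that of a member were found among 24568 others by the root mean square distance between profiles centred on their own means, in log2 units. This measure takes in the group difference and the place of each tumour in its group. Nearest to PIK3R1 were TENM1 (0.11), MAF (0.13), LDLRAD1 (0.14) and ACSM2B (0.14), where PIK3R1 itself varied by 0.70 around its mean. MAF, a transcription factor, read 5.88, 6.98 and 6.004 in control tumours and 7.73, 7.73 and 6.99 in IR-A tumours, again with control tumour 2 the highest control.

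Nearest to IRS2 were LATS2 (0.049), FANCB (0.063), MAZ (0.066) and MIX23 (0.075), against 0.29 for IRS2 around its own mean. LATS2, a kinase of the Hippo pathway, read 6.33, 6.35 and 6.36 in control tumours and 5.66, 6.03 and 5.73 in IR-A tumours. As for IRS2, the controls lay close together and IR-A tumour 2 was the highest of its group. Nearest to IRS1 were PTPN12 (0.084), ZNF736 (0.090), DCLK2 (0.090) and GNAQ (0.094), against 0.35 for IRS1. PTPN12, a tyrosine phosphatase, shared the low value of replicate 3 in both groups, at 7.59 among controls and 8.09 among IR-A tumours. With 6 tumours and this many genes, close profiles can arise by chance, and they are given as a description.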

How the data were processed

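Per the labels' protocols, total RNA (500 ng, Trizol) was turned into biotin-labelled sense DNA with an Affymetrix whole-transcript kit. The authors deposited log2 signals, 1 per gene-level probe set and array. RMA and Partek are named in the submitters' processing notes. The log2 scale was read from the values. For the array model, the build and the authors' test, nothing is given in the sources used here. RMA compresses differences of dim probe sets.

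Probe set IDs are Entrez gene IDs. GEO's annotation named 23934 of 24726, and the RefSeq gene table (GRCh38.p14) named 646 more by ID, among them PIK3CA and PIK3R2. Where a symbol had several probe sets, the brightest was used. At most 4.15% of values were identical between any 2 arrays.

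IR-A was compared with control by limma 3.58.1 in R 4.3.3 (lmFit, eBayes, no filter). P-values were Benjamini-Hochberg adjusted over the 24726 probe sets, and the threshold was 0.05. SE and 95% intervals of genes are moderated, and SEs of ratios come from the pooled SD. The script was tested on simulated data. Ratios used exact permutation tests (scipy 1.17.1). Named were all 9 members, INSR, the 3 genes of smallest p per list, and the 4 nearest profiles for IRS1, IRS2 and PIK3R1. Other genes are stated as named after their values were seen. Members, lists and pairs were chosen with earlier results of these data known. Alternatives were quantile normalization, median centring, filters on dim signal, an intensity trend, array weights, a replicate block, and fits with 1 tumour left out.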

Additional observations from a re-analysis of the deposited data

How the results depend on the processing

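The count of probe sets called, 0 in limma as reported, was 14 without the dimmest 25% of probe sets, 20 without the dimmest 50% and 11 with array weights. It was 0 to 308 with 1 tumour left out, with calls only without control tumour 2. By other criteria it was 3493 (unadjusted p under 0.05) and 4248 (groups that do not overlap). Of the 9 genes, 0 to 1 were called with 1 tumour left out, the 1 being PIK3R1 without control tumour 2 (difference 1.51, adjusted p = 0.0375), and 0 in the other settings. By the other criteria 5 and 4 were counted. With 1 tumour left out, the difference of IRS1 ran from -0.030 (without control tumour 3) to 0.41 and that of PIK3CD from -0.15 to 0.088 (without IR-A tumour 1), so that both could change sign. Neither gene had passed. The remaining 7 genes kept their direction in all settings run on them, and all 6 ratios did so under quantile normalization and with 1 tumour left out. Replicate numbers did not pair the tumours (correlations of deviations -0.29, -0.36 and 0.02). With the replicate number as a block, 0 probe sets and 0 of the 9 genes were called, and PIK3R1 had an adjusted p of 0.342. IRS4 fell below both filters on dim signal and gave no value there. No measure of background came with the values, which limits what can be said of dim genes such as IRS4.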

Other observations

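Transcripts that overlap or adjoin the described genes have probe sets of their own. PIK3CA-DT, a noncoding transcript that begins next to PIK3CA, was dim, with group means of 3.01 in control and 3.01 in IR-A tumours. PIK3CD-AS1 differed by -0.10 (SE 0.10) and PIK3CD-AS2 by -0.14 (SE 0.26), and the latter ranged from 5.23 in control tumour 2 to 6.21 in control tumour 3. IRS4-AS1, which overlaps the start of IRS4, was dim at 3.22 and 3.14. None passed the adjusted threshold in limma (lowest adjusted p = 0.736).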
